A study of Drosophila melanogaster with 4 samples.

Results

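Stretches of closely spaced H3K4me3 peaks are described here in white prepupae of Drosophila melanogaster. Trimethylation of lysine 4 of histone H3 (H3K4me3) was mapped by chromatin immunoprecipitation and sequencing. A stretch is a run of peaks on one chromosome arm in which each peak begins 500 bp or less after the end of the peak before it, and only stretches of 4 or more peaks were kept. The rule found 187 stretches with 901 peaks, which is 12.4% of the 7245 peaks on arms 2L, 2R, 3L, 3R, X and chromosome 4 and 11.6% of the 7743 peaks in the list. The peaks were chosen by their positions in the list alone, so the number, spacing and placement of the stretches are given as a description. The score and the width of a peak come from the same peak call as its position, and for this reason no value below has a test.

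The labels list 2 H3K4me3 libraries, made with a rabbit polyclonal antibody, and 2 libraries of input DNA, all from the strain Y cn bw sp. Both kinds of library share 1 genotype, with the marker alleles y[1], cn[1], bw[1] and sp[1], the variants oc[R3.2], CG33964[R4.2] and lab[R4.2], the receptor alleles Gr22b[1] and Gr22d[1], and further alleles Rh6[1], GstD5[1], MstProx[1] and LysC[1]. The values are the authors' single peak list for the series, on FlyBase release 5, with a position and a score from the peak caller for each peak. The list holds no value per library, so replicate error, depth and input background are not known for any peak. The white prepupa holds larval and imaginal tissues together, and peaks that neighbour each other in different tissues cannot be told apart from peaks that neighbour each other in the same cells.

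H3K4me3 is deposited by the COMPASS family of methyltransferases, in flies mainly by Set1, and lies mainly on the nucleosomes just downstream of the transcription start sites of active genes. The start site itself is often depleted of nucleosomes, so the mark can leave a short break there. The fly genome is compact, with many genes that start close to one another, back to back or in series. The white prepupa is the stage at which a pulse of the steroid hormone ecdysone opens metamorphosis. The genes under the stretches are not given, because no annotation of release 5 was used here.

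Stretches at the lower limit of 4 peaks were the most frequent. Of the 187, 105 held 4 peaks, 46 held 5, 18 held 6 and 10 held 7, while 2 held 8, 4 held 9, 1 held 10 and 1 held 11 peaks. Below the limit stood 379 triples, 1047 pairs and 3113 peaks with no neighbour within 500 bp, which are called single peaks here. The longest gap joined on the arms was 500 bp and the shortest left open was 501 bp. The last 50 bp below this limit held 132 gaps of the arms and the next 50 bp above it 114, so the joining distance falls on a gradual slope. Of the 105 stretches of 4 peaks, 24 had an inner gap in those last 50 bp, and 18 of the 379 triples had a further peak within 550 bp. The highest score of a stretch had a median of 350 in stretches of 4 peaks, just inside the limit, and of 303 in triples, just outside it. A highest score tends to rise with the number of peaks it is taken from, and its median was 231 in pairs and 400 in stretches of 5 peaks.

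The stretches were several kb long and largely filled by peaks. Their median length was 9525 bp (quartiles 7002.5 and 12835 bp), from 1987 to 30118 bp. The median length was 8084 bp for 4 peaks, 10678.5 bp for 5, 12916 bp for 6 and 17787 bp for 7 or more. Lengths of 5 to 10 kb were the most frequent, with 85 stretches, against 18 below 5 kb, 71 of 10 to 20 kb and 13 above 20 kb. Together the stretches spanned 1980 kb, 1.65% of the arms between first and last peak, and their peaks covered 1814 kb, 14.7% of the sequence under all peaks of the arms.

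**Figure D1:**
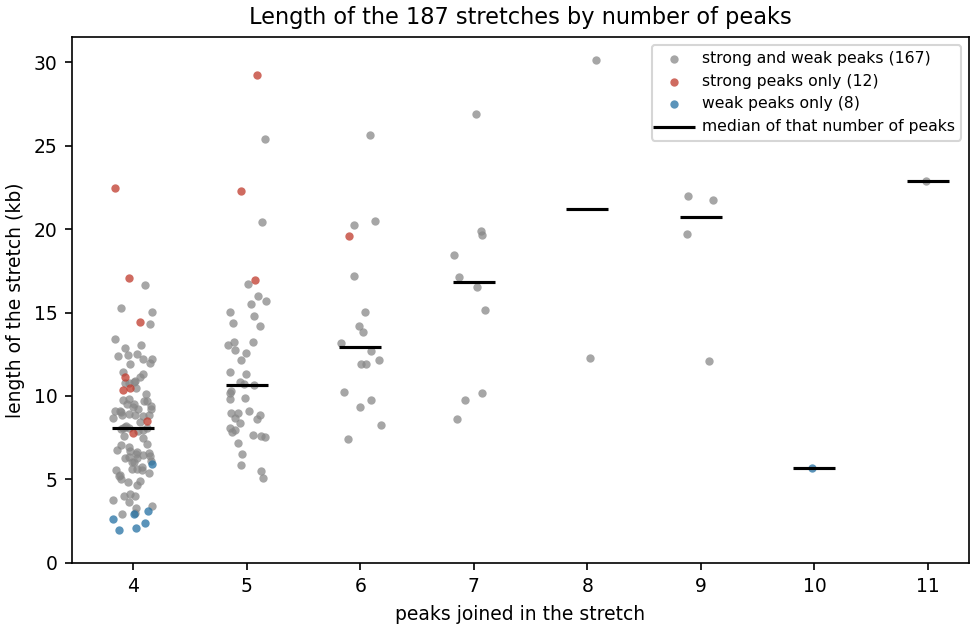
Length in kb (vertical axis) of each of the 187 stretches (points, spread sideways within a column) by the number of peaks joined (horizontal axis); the black bar is the median of the column, and the colours separate stretches of strong peaks only, of weak peaks only and of both. The 8 stretches of weak peaks only lie at 1987 to 5940 bp, and the 12 of strong peaks only at 7797 to 29227 bp.

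The median stretch was covered by peaks over 91.1% of its length (quartiles 88.2 and 93.7%). Triples and pairs, joined in the same way, had medians of 91.6% and 93.1%. The rule caps each gap at 500 bp, which bounds the uncovered part. The share was at least 90% in 123 stretches, between 80 and 90% in 56 and below 80% in 8. The 714 gaps inside the stretches had a median of 216.5 bp (quartiles 121 and 335 bp), and 135 of them (18.9%) were shorter than 100 bp. The shortest gap was 44 bp, which is also the shortest between any neighbouring peaks of the arms. The highest covered share, 98.7%, belonged to a stretch on 2L at 13382651 to 13395149. Its 4 peaks scored 334, 301, 36.7 and 390 and were parted by 51, 58 and 52 bp. The lowest covered share, 60.6%, was found on 3L at 7772 to 13473, where 10 peaks of 210 to 679 bp lay 51 to 431 bp apart. The covered share hardly varied with the number of peaks, with medians of 91.2% for 4 peaks and 90.7% for 7 or more.

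Peaks were called strong when their score was at or above the median of the whole list, 110.4, and weak otherwise. By this measure 488 of the 901 peaks in stretches (54.2%) were strong, against 50.3% of all peaks on the arms, 54.6% of peaks in triples, 52.4% of peaks in pairs and 46.2% of single peaks. Scores in the top 25% of the list were held by 34.6% of the peaks in stretches and 26.5% on the arms as a whole. The share was 30.9% in triples, 26.9% in pairs and 22.2% among single peaks. Scores under 20 were held by 27.2% of the peaks in stretches and 23.1% on the arms. Their share was 24.5% in triples, 25.3% in pairs and 20.0% among single peaks, so every joined group exceeded the single peaks. Scores of 50 to under 110 were held by 58 of the 901 peaks (6.44%), against 11.9% of all peaks on the arms, 7.92% of peaks in triples and 15.9% of single peaks. The median score was 149 in the stretches, 141 in triples, 130.0 in pairs and 94.6 for single peaks. These medians move in the order of the number of peaks joined. Joining at 250 bp lowered the median of the stretches to 88.0, and medians of the shorter groups were not computed at that distance. The lower quartiles did not follow the order, at 18.5 in stretches, 20.6 in triples, 19.7 in pairs and 25.5 for single peaks.

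**Figure D2:**
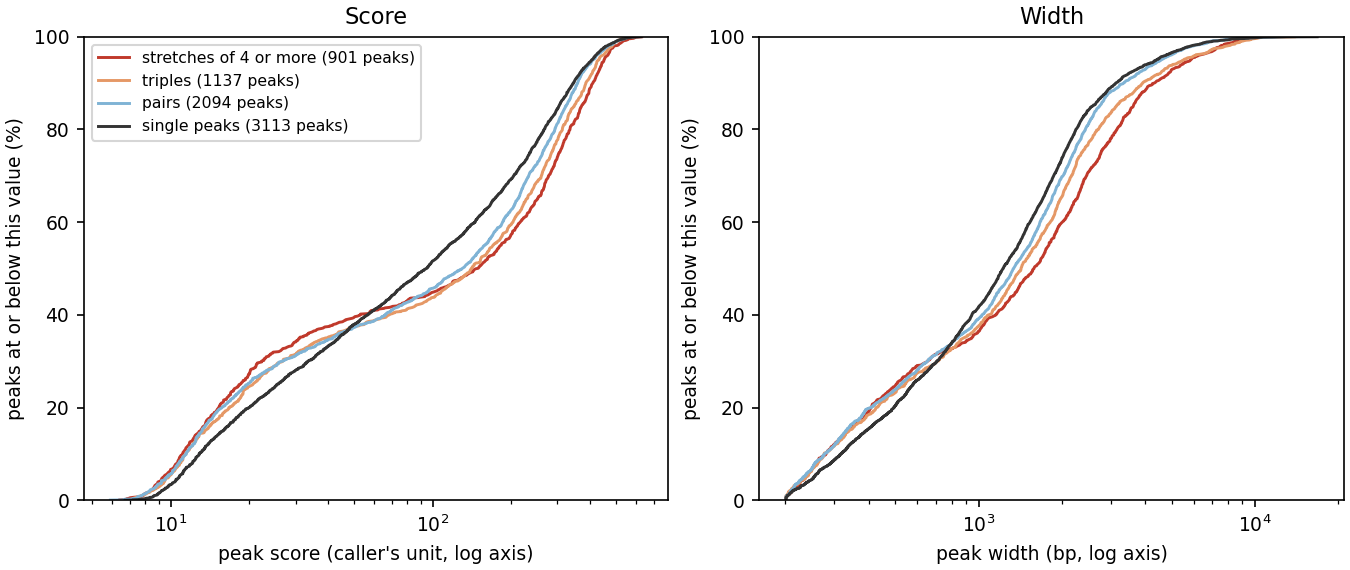
Share of peaks (vertical axis, %) at or below a given score (left, caller's unit, log axis) or width (right, bp, log axis) for peaks in stretches of 4 or more, in triples, in pairs and alone. The curve of the stretches lies above that of single peaks at scores under 20 and below it at the highest scores.

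Median peak width also moved in the order of the number of peaks joined. The median width was 1587 bp in stretches, 1424 bp in triples, 1338 bp in pairs and 1226 bp for single peaks. Strong peaks of stretches had a median width of 2623 bp, against 2065 bp for strong single peaks, and weak peaks of stretches one of 460 bp, against 633 bp for weak single peaks. The strong peaks of the stretches also had a higher median score than strong single peaks (294 and 248), and the weak ones a lower one (16.9 and 28.2), so these widths are not at equal score. At scores of 100 to 200 the median width was 1829 bp in the 112 peaks of stretches and 1596 bp in the 555 single peaks. In triples it was 1659 bp and in pairs 1631 bp. Below a score of 50 it was 405 bp in stretches, 409.5 bp in triples, 382 bp in pairs and 478.5 bp in single peaks. Broad peaks of 5 kb or more made up 7.10% of the peaks in stretches (64 peaks, in 53 stretches), against 4.46% of all peaks on the arms, 6.24% of peaks in triples, 3.92% of peaks in pairs and 3.41% of single peaks. These 64 were 19.8% of the 323 broad peaks of the arms.

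Strong and weak peaks stood together in most stretches. Both kinds were present in 167 of the 187 (89.3%), 12 held strong peaks only and 8 weak peaks only. At least 3 strong peaks were found in 102 stretches, and 33 had only 1. Within a stretch the highest score was a median of 24.5 times the lowest (quartiles 13.7 and 35.4), a ratio that tends to grow with the number of peaks compared. The highest score exceeded the second by a median factor of 1.35, by a factor of 2 or more in 51 stretches and by less than 1.5 in 110.

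The strongest peak had no fixed place. It stood at one of the ends in 84 of 187 stretches (44.9%), where the 2 end peaks make up an average of 43.6% of the peaks of a stretch. In the 105 stretches of 4 peaks it was the first peak, counted from the lower coordinate, in 25, the second in 22, the third in 30 and the last in 28. In the 46 stretches of 5 peaks the counts from first to last were 10, 11, 11, 7 and 7. Among the 33 stretches with only 1 strong peak, that peak stood at an end in 14. The strongest peak was also the widest in 118 stretches (63.1%), and it accounted for a median of 39.4% of the covered sequence.

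End peaks had a median score of 123 and a median width of 1452.5 bp (374 peaks), and inner peaks 162 and 1676 bp (527 peaks). The end peaks were unlike among themselves, with a median score of 82.4 at the lower coordinate and 150.1 at the higher coordinate. Strong peaks were 51.6% of the end peaks and 56.0% of the inner peaks. In stretches of 4 peaks the median score by position was 69.6, 114, 197 and 150 from the lower to the higher coordinate. In stretches of 5 peaks it was 154, 180, 240, 124 and 114, with the high value in the middle. In the 18 stretches of 6 peaks it was 267, 226, 165, 167, 155 and 253, with the high values at the ends, so no order by position was shared by the 3 sizes.

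Neighbouring peaks inside a stretch were more often of the same kind than peaks further apart in it. Of the 714 neighbouring pairs, 248 joined strong with strong, 287 strong with weak and 179 weak with weak. The share of strong-weak pairs was 40.2% for direct neighbours, 54.3% for peaks 2 places apart, 50.9% for peaks 3 places apart and 56.2% for peaks 4 places apart. The median ratio of the higher to the lower score was 2.18, 4.91, 4.98 and 6.05 at the same steps. Longer stretches give more pairs at the larger steps. Within the stretches of 4 peaks alone the shares were 43.8, 52.4 and 49.5% at 1, 2 and 3 places. The second-highest score was next to the highest in 102 of 187 stretches (54.5%), where direct neighbours make up an average of 43.6% of the pairs of a stretch.

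The share of strong-weak neighbours was close to that of shorter groups. It was 40.2% in the stretches, 40.4% in triples and 40.4% in pairs. Across gaps over 500 and up to 1000 bp it was 47.2% and across gaps over 1000 bp 49.4%. Pairs of 2 strong peaks made up 34.7% of neighbours in the stretches, 36.7% in triples, 32.2% in pairs and 22.2% across gaps over 1000 bp. A score at least 10 times that of the neighbour occurred in 26.2% of neighbouring pairs in the stretches and in 24.3% across gaps over 1000 bp. Gaps had a median of 251 bp between 2 strong peaks, 207 bp between a strong and a weak one and 183 bp between 2 weak ones.

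Strong peaks stood in 1 block, with no weak peak between them, in 108 of the 167 stretches with both kinds. This includes the 33 stretches with only 1 strong peak, for which it holds by construction. Of the other 134 stretches, 75 (56.0%) had 1 block. With few peaks per stretch, 1 block is frequent even if strong and weak peaks stand in no order, and this share was not tested. Over the 108 stretches the block stood at the higher coordinate in 42, at the lower coordinate in 31 and inside the stretch, with weak peaks on both sides, in 35. In 36 further stretches a block of weak peaks separated strong peaks at both ends. More than 2 switches between strong and weak were found in 23 stretches. In a stretch of 4 peaks this needs 2 strong and 2 weak peaks in strict alternation, so stretch size limits the count. Strict alternation from the first to the last peak was found in 5 stretches, each with 4 peaks. Of the 413 weak peaks, 249 (60.3%) had at least 1 strong neighbour and 38 lay between 2 strong ones. The 38 had a median score of 24.6 and a median width of 629.5 bp, against 15.1 and 401 bp for the 164 weak peaks beside no strong one.

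A central block was seen in the stretch with the most peaks, at 509065 to 531927 on X. Its 11 peaks scored 22.3, 102, 9.53, 57.7, 386, 318, 358, 199, 242, 68.4 and 8.77 in order. The 5 strong peaks in the middle had 4 weak peaks before them and 2 after them. The nearest peaks outside lay 85146 bp before and 3931 bp after it.

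All 4 stretches of 9 peaks lay on 3L. At 1295807 to 1317760, the longest stretch of the arm (21954 bp), the scores were 299, 174, 16.3, 477, 301, 308, 11.5, 9.14 and 8.51, with 3 weak peaks in a row at the higher coordinate. At 9703676 to 9725394 they were 15.6, 441, 134, 14.9, 212, 253, 385, 475 and 490.0, so the last 5 peaks stand in ascending order. At 5755706 to 5775399 they were 12.2, 268, 444, 401, 216, 26.8, 213, 451 and 202, where 1 weak peak parts blocks of 4 and 3 strong ones. The shortest of the 4, at 20761585 to 20773700 (12116 bp), had the lowest maximum of them, with scores of 82.4, 259, 183, 12.8, 17.7, 9.75, 10.9, 266 and 240.4. The highest score of all stretches, 629, was held by a 1696 bp peak in the stretch on 3L at 19825434 to 19833506. A weak peak of 331 bp scoring 13.6 ended 47 bp before it, and peaks scoring 237 and 420 followed.

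**Figure D3:**
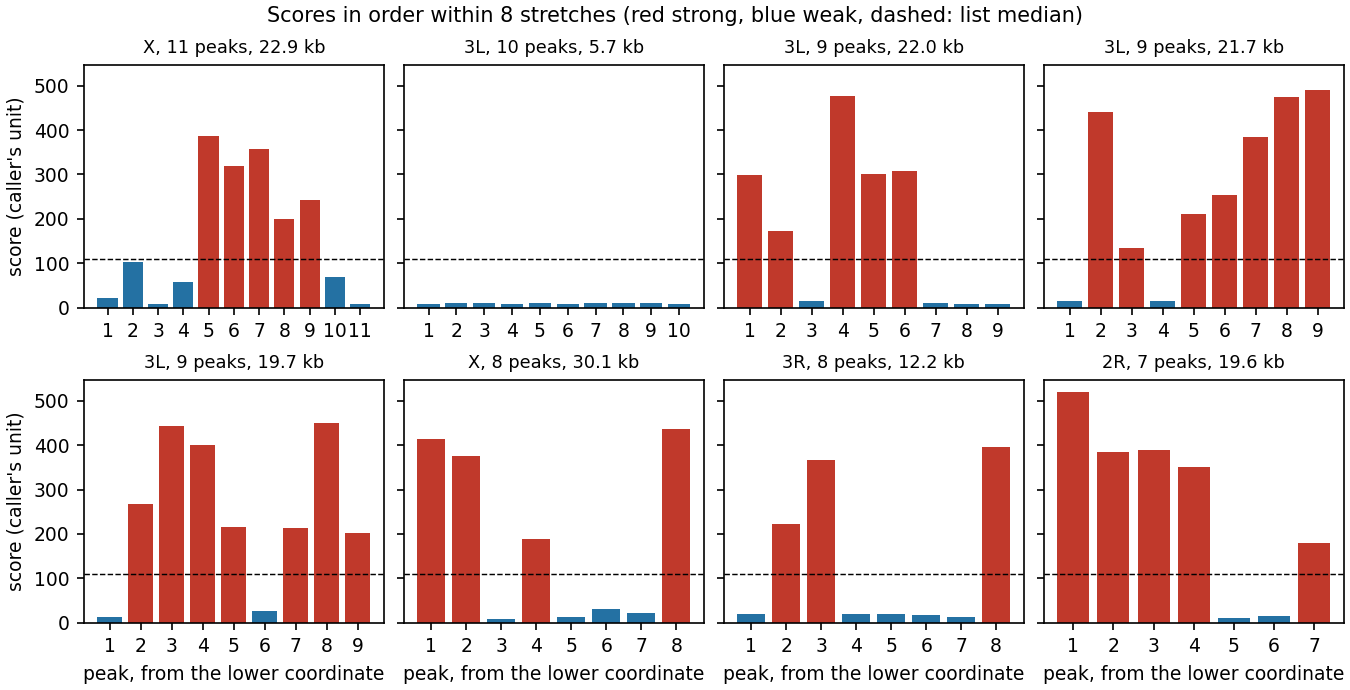
Score of each peak (vertical axis, caller's unit) in order from the lower coordinate (horizontal axis) for 8 stretches. They are those with the most peaks among the stretches chosen by rule. The stretch of 9 peaks on 3L at 20761585 to 20773700, added later to the text, is not drawn. Strong peaks are red, weak peaks blue and the list median of 110.4 is dashed. Strong peaks form a central block in the stretch of 11 peaks, stand at both ends of the stretch of 8 peaks on X, and are lacking in the stretch of 10 peaks.

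The longest stretch, 30118 bp, lay on X at 1756508 to 1786625 and was 97.0% covered. Its 8 peaks scored 414, 376, 9.23, 189, 13.1, 31.2, 21.4 and 436. Broad peaks of 11251, 6217 and 6964 bp were the first, the second and the last, and the weak peaks between them were 203 to 1386 bp wide. Strong and weak peaks alternate over 4 of its peaks, from the second onwards, which is the longest alternation in any stretch and is shared by 10 stretches, 5 of them with more than 4 peaks. Only 1880 bp further on X, at 1788506 to 1797146, followed a stretch of 7 peaks with the lowest median score among stretches, 8.69. It consisted of a peak of 4143 bp scoring 162 among 6 peaks scoring 6.40 to 21.1. Both stretches together placed 15 peaks within 40.6 kb.

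The longest stretches of 3R, 2R and 2L held 5, 5 and 4 strong peaks, with 1 weak peak on 2R, whereas that of 3L, described above, held 4 weak peaks of 237 to 407 bp among its 9. On 3R the 5 peaks at 11169704 to 11198930 (29227 bp) scored 321, 183, 282, 313 and 336, and the third was 9818 bp wide. On 2R the 6 peaks at 4792282 to 4817940 (25659 bp) scored 265, 268, 225, 478, 40.4 and 554, with a last peak of 9758 bp. On 2L the 4 peaks at 3019397 to 3041870 (22474 bp) scored 512, 396, 441 and 294, the highest median score of any stretch at 418. Of the 13 stretches above 20 kb, 11 contained a peak of 5 kb or more. Every one of the 13 was at least 90.4% covered and reached a score of at least 336.

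The stretches with the most peaks on 3R, 2L and 2R placed weak peaks beside strong ones. On 3R the 8 peaks at 18941494 to 18953739 (12246 bp) scored 20.1, 222, 367, 20.3, 19.3, 17.5, 13.6 and 395, so that 4 weak peaks in a row parted the strong ones. On 2L the 7 peaks at 10261977 to 10272135 (10159 bp) scored 404, 30.6, 33.6, 155, 326, 154 and 14.2. On 2R the 7 peaks at 19775226 to 19794852 (19627 bp) began with scores of 520.0, 385, 388 and 350 and went on with 10.6, 15.1 and 180. A shorter stretch of 2R at 19728999 to 19746142 (17144 bp) also held 7 peaks, which scored 10.5, 137, 453, 11.8, 465, 404 and 17.4.

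The 8 stretches without a strong peak were 1987 to 5940 bp long, with a median of 2758 bp, against a median of 15686 bp for the 12 stretches of strong peaks only. Their covered share ran from 60.6 to 95.1%, with a median of 76.5% and 4 of the 8 above 80%, against a median of 93.7% for the stretches of strong peaks only. The highest score in them was between 11.2 and 98.7. Of the 8, 2 lay within the first 20 kb of an arm. One is the stretch of 10 peaks on 3L at 7772 to 13473, with scores of 7.89 to 11.2. The other, on 2L at 2039 to 4417, had the lowest maximum of any stretch, with scores of 11.2, 10.2, 10.7 and 10.9. Base 1 is the outer end of 2L and 3L.

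All 5 large arms carried stretches and chromosome 4 carried none. The 3R arm had 48 stretches, 2L 43, X 37, 3L 34 and 2R 25. Per Mb between the first and last peak this was 1.87 on 2L, 1.72 on 3R, 1.65 on X, 1.39 on 3L and 1.18 on 2R. The share of an arm's peaks that lay in stretches was 15.0% on 2L, 13.6% on 3R, 13.1% on X, 12.7% on 3L and 8.39% on 2R. Among the 5 large arms, 2R thus had the fewest stretches for its length and the smallest share of peaks in them. It nevertheless held 1407 peaks, more than 2L with 1268. The small chromosome 4, with 76 peaks, held 2 triples and 8 pairs as its largest groups.

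The stretches on X contained weaker peaks than those on the other large arms. Their peaks had a median score of 57.7 on X, against 162 on 2L, 185 on 2R, 131 on 3L and 177 on 3R. Strong peaks were 42.5% of them on X, against 57.4% on 2L, 60.2% on 2R, 51.4% on 3L and 59.6% on 3R. All peaks of X also had the lowest share of strong peaks of the large arms, 45.8%, against 51.2 to 52.0% on the others. The median length of a stretch was 7854 bp on X and 9002 to 10539.5 bp on the other large arms.

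Along the arms the spacing of the stretches varied widely, and grouping beyond that of all peaks was not tested. The 182 intervals between successive stretches had a median of 367 kb (quartiles 109.7 and 812 kb). An interval was under 50 kb in 33 cases and over 1 Mb in 33. Of 116 full windows of 1 Mb on the large arms, 15 held 4 or more stretches, 71 in all, and 32 held none. The windows with 4 or more had a median of 84 peaks (65 to 107) and the windows without a stretch a median of 48 (9 to 78), against 61.5 over all full windows. The most stretches, 7, lay in the window at 6000001 to 7000000 on 2L, which held 84 peaks. The windows at 10000001 to 11000000 on 2L (107 peaks) and 19000001 to 20000000 on 2R (93 peaks) held 6 each.

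Some stretches nearly touched. Successive stretches were less than 10 kb apart in 13 cases, of which 4 were on 2L, 1 on 3L, 5 on 3R and 3 on X. The closest were 714 bp apart, on 2L at 2980289 to 2983191 and 2983906 to 2996127. On 2L, 3 stretches of 4, 5 and 5 peaks followed each other from 13803284 to 13837273. The nearest peak outside a stretch lay at a median distance of 1521 bp (quartiles 750 and 4002 bp), and within 1 kb in 66 of the 187. The longest interval without a stretch measured 4.05 Mb, on 2R at 12159602 to 16208006. The longest interval was 3.63 Mb on 2L, 2.73 Mb on X, 2.72 Mb on 3L and 2.54 Mb on 3R.

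**Figure D4:**
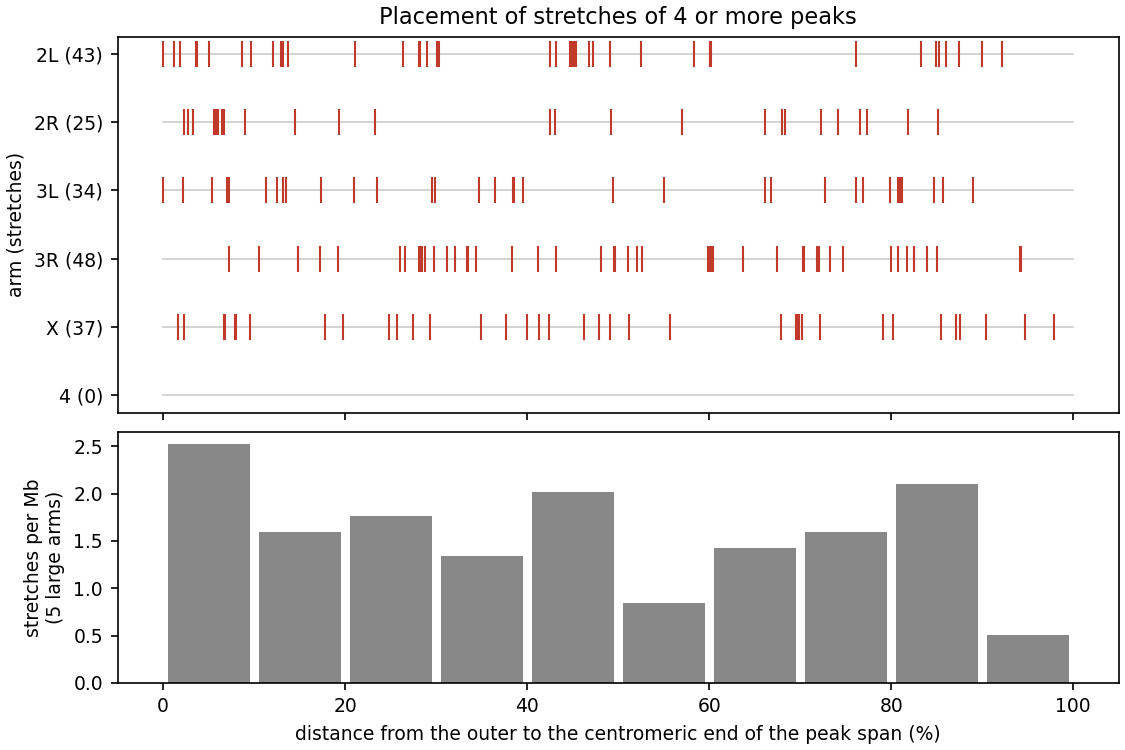
Upper panel: position of each stretch (red marks) between the outer end (0%) and the centromeric end (100%) of the span of peaks on each arm, with the number of stretches in brackets. Lower panel: stretches per Mb in each 10% of the span over the 5 large arms, 2.52 in the outermost 10% and 0.504 in the innermost.

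The outermost 10% of the large arms held 30 stretches (2.52 per Mb) and the innermost 6 (0.504 per Mb). The segments between them ran from 0.841 to 2.10 per Mb, in no steady order. The outermost 10% had 9 stretches on 2R, 8 on 2L, 7 on X and 5 on 3L but 1 on 3R. The innermost 10% had 3 on X, 2 on 3R, 1 on 2L and 0 on 2R and 3L. Per 100 peaks the values were 3.37 stretches in the outermost 10%, 1.54 to 3.30 in the segments between and 1.21 in the innermost 10%. The outermost 10% also held the most peaks, 891, and per 100 peaks it was close to the highest of the segments between. The innermost 10% held the fewest peaks, 497. A stretch needs several short gaps in a row, so the number of stretches can fall faster than the number of peaks. Whether stretches were fewer at the base than the density of peaks implies was not tested. The last 2 Mb before the centromeric end of the 5 arms held, in whole or in part, 5 stretches, 0.5 per Mb, against 1.67 per Mb on the rest of these arms. There 20 of 418 peaks (4.78%) lay in stretches, against 13.0% of the peaks on the rest of the arms. This difference, too, was not tested against the density of peaks.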

How the data were processed

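The labels list 2 H3K4me3 immunoprecipitations and 2 inputs, sequenced as separate libraries. Per the submitters' processing notes, the assembly was BDGP5 and the tools were MACS2, BWA and CASAVA (1.7.0.3 and 1.7.0.2). Their settings are not given there. The deposited file is 1 peak list for the series, on FlyBase release 5 per the file headers. Each peak has a score deposited by the authors on a scale that the file does not name, and scores therefore serve only to rank and describe peaks. Not given in the sources used here are the pooling of replicates and the use of input in the call. The list has no counts, so depth and the precision it gives are unknown.

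Width was end minus start plus 1, a gap the next start minus the end minus 1, and the span of an arm was bounded by its outermost peaks. Stretches were counted in windows and 10% segments by their midpoints. Members, definitions and alternatives were chosen with earlier results of these data known. The stretches with individual values are, on each arm, that with the most peaks and the longest, then the 5 with the most peaks over all arms, those with the highest and lowest covered share, maximum score and median score, and that with the longest alternation. Ties went to the stretch with more peaks and then to the longer one. The tied stretches at 20761585 on 3L and 19728999 on 2R were added after their values were seen. Alternatives were joining at 250 and 1000 bp, at least 5 peaks, only scores of 20 or more, omission of the first 20 kb of each arm, and other definitions of strong. The available gene table is on release 6, so no genes were assigned. The tools were matplotlib 3.10.9, scipy 1.17.1, pandas 2.3.3 and numpy 2.4.6 under Python 3.11.15.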

Additional observations from a re-analysis of the deposited data

How the results depend on the processing

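Of 36 alternative values for 7 results, 16 stayed close to the reported one. Close meant within 1.5 times for counts and densities and within the 95% binomial interval for shares and medians. Peaks and stretches of 1 call are not replicates and the alternative sets overlap the reported one. The interval is therefore only a limit for calling a value close. Omission of the first 20 kb of each arm, with 185 stretches left, moved none of the 7 results. Joining at 250 bp gave 51 stretches (0.424 per Mb) with a median length of 7384 bp, 94.2% covered, a median score of 88.0, the highest score at an end in 56.9% and strong-weak neighbours in 35.1%. Joining at 1000 bp gave 349 stretches (2.90 per Mb), 87.5% covered, with the highest score at an end in 37.5%. The 51 stretches held 219 peaks and the 349 held 1811, so the number of peaks per stretch differed. The share of end positions was not computed for either set, and the 2 end shares lack that reference. With scores of 20 or more alone there were 79 stretches (0.657 per Mb) of 11940 bp, 93.0% covered, with a median score of 229.8 and strong-weak neighbours in 33.2%. With at least 5 peaks there were 0.682 stretches per Mb of 12210 bp. With strong defined as at least 1/2 of the stretch's own highest score, 46.6% of neighbours were strong-weak. The joining distance, the minimum and the score floor change which peaks can enter by construction. No paired analysis was possible because peaks carry 1 score for the series and none per library. Leaving out a replicate was not possible either. What depth limits could not be measured.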

Other observations

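Outside the arms, the 498 peaks on U, Uextra and the heterochromatin sequences formed no stretch of 3 or more under the same joining distance, and 10 pairs. These sequences are partly joined from fragments, so distances on them are not distances along a chromosome.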
